A study of Mus musculus with 8 samples.

Results

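Glycolysis and its responses to low oxygen were followed in calvarial cells of mice labelled OSX-SphK2 knockout (KO) and of littermate controls labelled WT. The 39 genes were taken by symbol from a list of glucose transporters, glycolytic enzymes, lactate and regulatory proteins, oxygen sensors and hypoxia-responsive genes, and all 39 were found among the 25239 symbols of the count table. Polyadenylated RNA of primary cells described as osteoblasts was sequenced in 4 libraries per genotype, numbered 1 to 4 in each. Sphk2 encodes sphingosine kinase 2, and OSX is osterix, the osteoblast-lineage transcription factor encoded by Sp7, so the label names a deletion tied to that lineage. Age, sex, the number of animals behind a library and what the replicate number stands for are not given by the labels. P-values from fits of genotype alone therefore reflect only how far the libraries of a group spread, which may be technical. Those from fits that hold the replicate number reflect the spread left after number and genotype are removed, which may be technical too.

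In glycolysis, glucose enters through facilitative transporters, is phosphorylated by hexokinases, split into triose phosphates and oxidised to pyruvate, which lactate dehydrogenase can turn into lactate for export with a proton. The transcription factor subunit HIF-1α is hydroxylated by the prolyl hydroxylases EGLN1 to EGLN3 when oxygen is present and is then degraded. When it is stable it activates many glycolytic genes by binding hypoxia response elements, and osteoblasts are known for a high rate of aerobic glycolysis.

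The libraries held 14347495 to 19065421 counts. Sphk2 did not check the genotype label: its mean was 89.1 ± 30.8 CPM in controls and 86.3 ± 29.9 CPM in those labelled knockout (SD, n = 4 each), with a log2 fold change of −0.05 and an adjusted p of 0.9999 in edgeR. CPM is the read count relative to the scaled library total. Markers of the labelled cell type were present unevenly, with Col1a1 at 906.8 to 7205 CPM and Sp7 at 3.29 to 46.2 CPM, while Bglap, the osteocalcin gene of mature osteoblasts, was at most 0.582 CPM in every library except knockout 1 (42.3 CPM). The macrophage genes Lyz2 and Csf1r ran from 16420 to 34460 and from 2932 to 5044 CPM. The libraries numbered 4 stood apart in each genotype: the first principal component held 73.7% of the variance and separated control 4 and knockout 4 from the other 6. The 10 osteoclast markers summed to 10220 CPM in control 4 and 6748 CPM in knockout 4, against 171.8 to 277.9 CPM in the other 6 libraries. Genotype differences are therefore given without those libraries as well as with them, and with all 8 libraries and no block no gene passed the threshold in edgeR. In bulk RNA, fewer cells of a type and less RNA per cell cannot be told apart.

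Most of the pathway was higher in both libraries numbered 4. Both stood above all 6 others for 32 of the 39 genes, including 31 of the 38 that passed the low-count filter, and for 34.2% of all 12837 genes that passed it. Only Hk2 and Hk3, which encode hexokinases, had both below the other 6, against 33.8% of all genes. Slc2a3, Slc16a1, Pfkfb4, Bnip3l and Adm were neither. The median log2 ratio of number 4 to the mean of numbers 1 to 3 was 1.79 for the members and 0.03 for all genes in controls, and 1.65 and −0.001 in the libraries labelled knockout. An edgeR test between replicate numbers, with genotype in the model, called 33 of 38 members and 53.1% of all genes. The members it did not call were Slc2a3, Slc16a1, Pfkfb4, Adm and Eno3. With numbers 1 to 3 alone the same test called 0 of 38 members and 310 of 12919 genes. Osteoclast markers were high in the same libraries: Acp5 was 11.9 to 22.9 CPM in numbers 1 to 3 and 3446 and 1699 CPM in control 4 and knockout 4. Of the 10, Nfatc1 alone did not have both above the other 6 (209.8 and 99.6 CPM against 96.0 to 105.1). Other cell-type markers differed there too. The 12 macrophage markers summed to 35890 CPM in control 4 and 50240 in knockout 4, against 29440 to 39330 in the other 6. Single genes of that list went both ways. Mrc1 was 135 and 326.6 CPM against 1058 to 1588, and Cd14 730.5 and 874.9 against 81.2 to 165.8. The osteoblast factor Sp7 was 3.29 and 10.6 CPM, below the other 6. The part of these markers in the member levels was not tested.

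**Figure D1:**
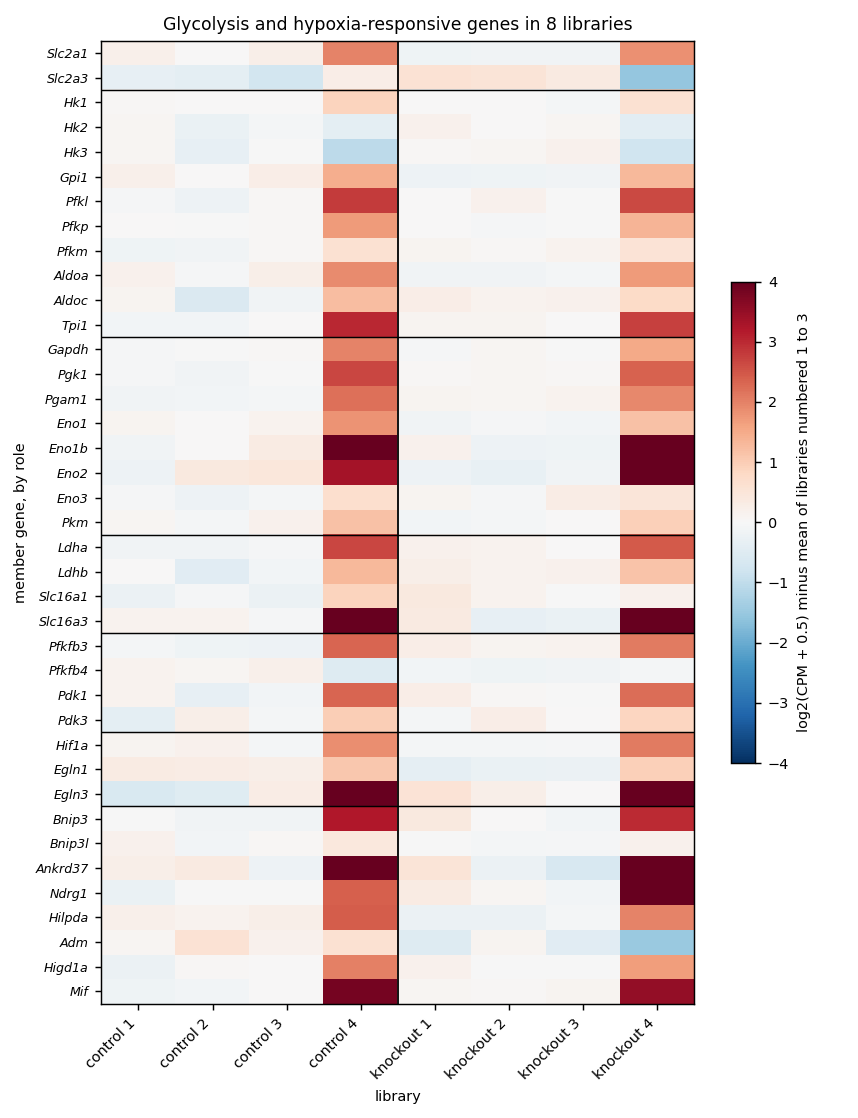
Level of each of the 39 genes (rows, grouped by role) in each of the 8 libraries (columns), as log2(CPM + 0.5) relative to the mean of the libraries numbered 1 to 3, with the colour scale clipped at 4 in both directions. The columns numbered 4 are high for 32 of the 39 genes and low for Hk2 and Hk3.

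Promoters were read for the members, whether high in number 4 or not, from 250 bases before to 50 after each RefSeq start (GRCm38.p6). A window was found for 35 of the 39, and not for Eno1b, Ndrg1, Slc2a3 and Bnip3l. The core letters of the hypoxia response element, ACGTG, were searched on both strands (CACGT on the printed strand is the match on the other), so that CACGTG counts as a match on each. At least 1 match stood in the windows of 24 of 35 members (68.6%), of 2985 of 10207 filtered genes (29.2%) and of 23.4% of all genes with a window. Counted by window, the share was 55.1% of 49 member windows and 25.2% of the windows of filtered genes, whose base compositions were 61.1% and 60.5% G or C. Among members with both libraries numbered 4 above the rest the share was 21 of 30, and among the others 3 of 5. The members were listed as glycolytic and hypoxia-responsive genes, so a share above that of all genes may come from how the list was made. A match describes the letters only, and other spellings of the element were not searched. The stretches shown, with the matches in capitals, lie clear of annotated exons and belong to members with small p-values between numbers, picked after their values were seen: Pgk1 (phosphoglycerate kinase, chrX:106186935-106186988, plus strand), Ldha (lactate dehydrogenase A, chr7:46845644-46845789, plus), Bnip3 (a mitophagy receptor, chr7:138909594-138909629, minus) and Hif1a (chr12:73907717-73907816, plus).
Pgk1: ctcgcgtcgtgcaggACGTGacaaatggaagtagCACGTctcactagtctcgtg
Ldha: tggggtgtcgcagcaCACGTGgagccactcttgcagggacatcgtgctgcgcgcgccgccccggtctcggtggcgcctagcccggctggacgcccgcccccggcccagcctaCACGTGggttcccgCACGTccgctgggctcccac
Bnip3: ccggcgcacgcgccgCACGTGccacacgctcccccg
Hif1a: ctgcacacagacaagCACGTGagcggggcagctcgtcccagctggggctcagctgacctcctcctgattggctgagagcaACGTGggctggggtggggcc
The Ldha stretch held 5 matches, that of Hif1a 3 and those of Pgk1 and Bnip3 2 each. Stretches of Aldoa and Pgam1, picked in the same way, held 1 match each and are not shown. The windows of Tpi1, Gpi1, Pfkl and Adm held none, nor did those of Pdk1, Eno1, Eno2, Ldhb, Pfkp, Eno3 and Pfkfb4. All of these genes except Adm and Pfkfb4 were high in both libraries numbered 4.

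Between the genotypes, no member passed the adjusted threshold of 0.05 with all 8 libraries, where 0 of 12837 genes did. At an unadjusted p under 0.05 in edgeR there was 1 of 38 members (Adm) and 4.92% of all genes, and DESeq2 called 0 members beside 0.989% of all genes higher and 0.382% lower. Adding the replicate number as a block also called 0 of 38 members, with 1.31% of all genes higher and 1.18% lower in the libraries labelled knockout. With the libraries numbered 4 left out, 4 members were higher and 4 lower, beside 7.78% of all genes higher and 6.29% lower. Higher were Slc2a3, Pfkfb3, Ldha and Pgam1, and lower were Egln1, Slc2a1, Gpi1 and Pfkfb4. With all 8 libraries and no block each of these 8 had an edgeR adjusted p of 0.9999, and the log2 fold changes were −0.41 for Egln1, −0.225 for Slc2a1, −0.26 for Gpi1, −0.12 for Pfkfb4, −0.02 for Pfkfb3 and −0.08 for Ldha. With the block in those 6 libraries Aldoc and Ldhb were also higher (12.3% of all genes) and Aldoa, Eno1 and Adm also lower (11.9%). When each of the 6 libraries was left out in turn, all 8 kept their sign, and Egln1 and Slc2a3 passed the threshold in all 6 refits. Pfkfb3 and Pfkfb4 passed in 3, Slc2a1 and Gpi1 in 2, Pgam1 in 1 and Ldha in 0. Without control 3 or without knockout 3 only Egln1 and Slc2a3 remained of the 8. The 8 were picked by the test on libraries 1 to 3, so a lack of overlap between genotypes there is no separate support. Tpi1, Pgk1, Mif, Hilpda, Pfkm, Eno3 and Slc16a1 did not overlap there either and did not pass. Aldoa, Aldoc, Eno1 and Ldhb likewise did not overlap, and in those libraries passed with the block but not without it. How many of all genes lacked overlap was not computed. The median log2 difference of the members between same-numbered libraries was 0.10, 0.09, −0.05 and −0.20 in pairs 1 to 4, with 22, 22, 18 and 6 of 38 above 0, and that of all genes lay between −0.01 and 0.01. Cell-cycle markers differed in level between the same libraries: 12 of them summed to 363.1, 593.7 and 449.3 CPM in controls 1 to 3 and to 1168, 1304 and 1220 CPM in those labelled knockout, and their part in these differences was not tested.

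**Figure D2:**
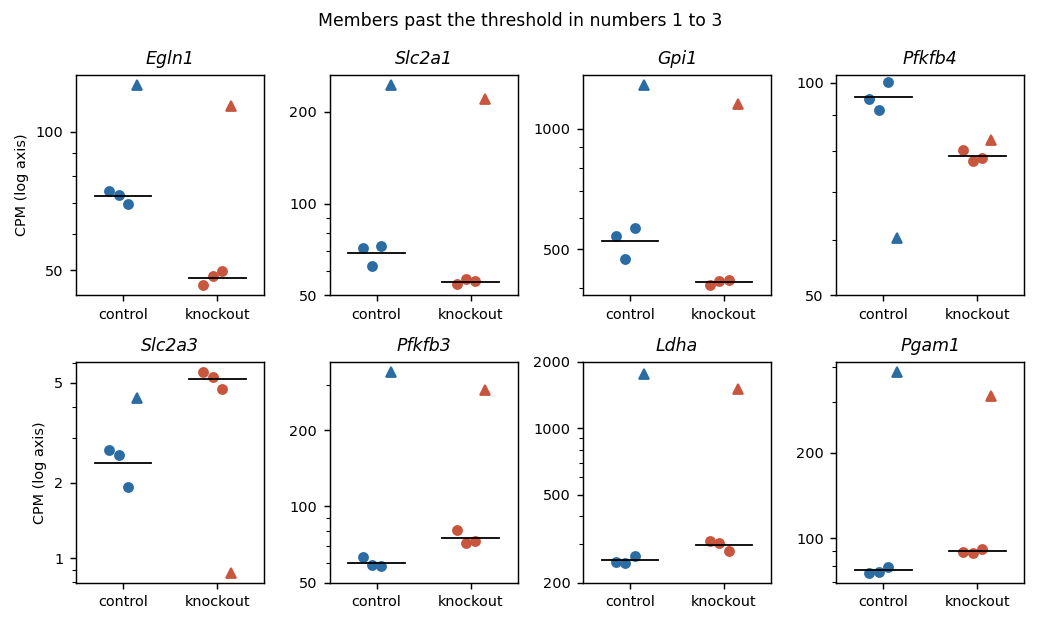
CPM on a log axis of the 8 genes past the threshold with numbers 1 to 3 alone, by genotype; circles are libraries 1 to 3, triangles the libraries numbered 4, and black lines the mean of libraries 1 to 3. The genes were picked by a test on the circles, so the gap between genotypes there is no separate support. The triangles lie far above the circles except for Slc2a3 and Pfkfb4.

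Without the libraries numbered 4, the 2 glucose transporters differed between genotypes in opposite directions. Slc2a1 encodes GLUT1, the broadly expressed transporter, and lies at chr4:119108711-119137983. It measured 71.6, 62.7, 72.4 and 245.6 CPM in control libraries 1 to 4, and 54.3, 56.4, 55.6 and 220.5 CPM in those labelled knockout. It was lower in 4 of 4 same-numbered pairs, with both libraries numbered 4 far above the others. The log2 fold change was −0.31 (SE 0.07) without number 4 (edgeR adjusted p = 0.0190), and −0.27 with 8 libraries and the block (adjusted p = 0.0902). Slc2a3 encodes GLUT3, a transporter of high glucose affinity, and lies at chr6:122727809-122801640. Its level was 2.699, 2.59, 1.92 and 4.33 CPM in controls and 5.52, 5.27, 4.72 and 0.874 CPM in those labelled knockout. The first 3 libraries labelled knockout were all above every control, while knockout 4 was the lowest of the 8. Without number 4 the level was 2.15 times that of controls, a log2 fold change of 1.10 (SE 0.21, edgeR adjusted p = 0.0095), but pair 4 gave −2.17, and all 8 libraries gave 0.51 (SE 0.54, adjusted p = 0.9999). Per kilobase of exon Slc2a1 ran from 15.5 to 70.1 CPM and Slc2a3 from 0.121 to 0.762.

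Among the enzymes from glucose to triose phosphate, Gpi1 was the member past the threshold. It encodes glucose-6-phosphate isomerase, which turns glucose-6-phosphate into fructose-6-phosphate, and lies at chr7:34201330-34230336. It measured 539.6, 473.0, 563.9 and 1289 CPM in controls and 406.2, 417.4, 419.8 and 1156 CPM in those labelled knockout. It was lower in each pair, by a log2 fold change of −0.34 (SE 0.08, edgeR adjusted p = 0.0190) without number 4 and of −0.29 with the block over 8 libraries (adjusted p = 0.101). Exons of Gpi1 and of Slc2a1 overlap noncoding genes on the opposite strand (Gm26762 and Gm12868), and without strand their reads cannot be told apart. Hk2, a mitochondria-bound hexokinase induced in growing cells, measured 137.5, 107.1, 122.5 and 98.6 CPM in controls and 145.2, 131.5, 135.3 and 97.1 CPM in those labelled knockout. Hk3, the hexokinase of myeloid cells, measured 244.9, 186.5, 228.6 and 113.4 CPM in controls and 238.6, 246.5, 263.4 and 134.7 CPM in the others. The genotypes overlapped for both, and the lowest library of each genotype was number 4. Hk1, the housekeeping hexokinase, was instead highest in number 4, at 244.8 and 198.2 CPM against 123.7 to 135.4 CPM elsewhere.

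The 3 phosphofructokinase genes, for the committed step, differed in how far number 4 stood above. Pfkl, the liver-type subunit, was 58.2 to 75.8 CPM in numbers 1 to 3 and 471 and 421 CPM in control 4 and knockout 4, which is 7.35 and 5.98 times the mean of libraries 1 to 3 of the same genotype, called the genotype mean from here on. For Pfkp those ratios were 3.22 and 2.59, and for Pfkm, the muscle-type subunit, 1.63 and 1.37. No genotype difference passed for any of them. The aldolase gene Aldoa, which splits fructose-1,6-bisphosphate, ran from 776.8 to 1001 CPM in numbers 1 to 3 and to 3186 and 2800 CPM in number 4. Without number 4 its log2 fold change was −0.245 (edgeR adjusted p = 0.0837, and 0.0143 with the block), against −0.215 with 8 libraries. Aldoc, the brain-type aldolase, gave 0.37 (adjusted p = 0.188, and 0.0292 with the block), against 0.03 with 8 libraries. Tpi1, triosephosphate isomerase, was 139.4 to 164.8 CPM in numbers 1 to 3, and its number 4 libraries were 8.63 and 6.27 times their genotype mean.

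The enzymes from triose phosphate to pyruvate showed the same number pattern without a shared genotype direction. Pgam1, phosphoglycerate mutase, at chr19:41911923-41918660, was the member past the threshold here. It measured 75.7, 76.5, 79.3 and 383.9 CPM in controls and 89.9, 88.5, 92.0 and 316.2 CPM in those labelled knockout. Libraries 1 to 3 did not overlap between genotypes, and the direction turned in pair 4. The log2 fold change was 0.23 (SE 0.05, edgeR adjusted p = 0.0235) without number 4 and −0.07 (SE 0.70, adjusted p = 0.9999) with it. Gapdh, glyceraldehyde-3-phosphate dehydrogenase, which is often used as a reference gene, was 1000 to 1092 CPM in numbers 1 to 3 and 4134 and 3001 CPM in number 4, or 3.98 and 2.88 times the genotype mean. Its log2 fold change without number 4 was 0.01 (adjusted p = 0.955), and −0.24 with 8 libraries. Pgk1 stood at 6.64 and 4.97 times, and Pkm, pyruvate kinase, at 2.13 and 2.02 times. Eno3, the muscle enolase, had the narrowest range, 4.38 to 8.53 CPM.

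The enolases, which make phosphoenolpyruvate, diverged between the 2 libraries numbered 4. Eno1 measured 603.4, 562.5, 620.8 and 1948 CPM in controls and 502.4, 544.9, 518.3 and 1243 CPM in those labelled knockout. It was lower in all 4 pairs, with a log2 difference of −0.65 in pair 4 and a log2 fold change of −0.41 (SE 0.51) with 8 libraries. Without number 4 it passed with the block (edgeR adjusted p = 0.0393) and not without it (0.102), except when control 2 was also left out. Eno2, the neuronal enolase, measured 1.43, 2.42, 2.56 and 22.0 CPM in controls and 1.43, 1.30, 1.5 and 78.3 CPM in the others. Its level in knockout 4 was above that in control 4 by 1.83 on the log2 scale, the opposite way to Eno1. Eno1b, a copy of Eno1 on chromosome 18, held 12 to 20 counts in numbers 1 to 3 and 2196 and 3484 counts in control 4 and knockout 4. Because Eno1 and Eno1b are nearly identical and the labels do not say how reads with several alignments were treated, their levels are uncertain. Aldoa, Gapdh, Pgk1, Pgam1, Ldha and Mif each have 2 annotated pseudogenes named after them, and Bnip3l has 1, so the same reserve holds there.

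In lactate formation and transport, Ldha had the highest mean level, at 185.4 CPM per kilobase. Ldha, at chr7:46841475-46855627, favours lactate over pyruvate and measured 247.2, 246.7, 263.6 and 1762 CPM in controls and 308.8, 301.4, 278.8 and 1502 CPM in those labelled knockout. Numbers 1 to 3 did not overlap between the genotypes and pair 4 turned the other way. The log2 fold change without number 4 was 0.23 (SE 0.06, edgeR adjusted p = 0.0434), a call lost whenever 1 of the 6 libraries was left out. That call was also lost without the low-count filter. Ldhb, the heart-type subunit, measured 48.9, 35.8, 45.1 and 122.1 CPM in controls and 58.1, 54.2, 54.9 and 108.2 CPM in the others, with a log2 fold change of 0.37 without number 4 (adjusted p = 0.0549, and 0.00564 with the block) and 0.13 with 8 libraries. Slc16a3 encodes MCT4, a lactate exporter, and measured 18.4, 18.3, 16.3 and 498.6 CPM in controls and 21.5, 13.0, 13.9 and 451 CPM in the others. Number 4 was 28.3 and 27.9 times its genotype mean, while the genotypes overlapped. Slc16a1 (MCT1), which carries lactate both ways, ran from 8.73 to 19.6 CPM with no difference past the threshold between numbers (adjusted p = 0.282).

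The regulatory kinases split by family member. Pfkfb3 makes fructose-2,6-bisphosphate, an activator of phosphofructokinase, and lies at chr2:11471433-11554077. It measured 62.97, 58.9, 58.1 and 340.2 CPM in controls and 80.6, 71.8, 73.2 and 286.9 CPM in those labelled knockout. All 3 of numbers 1 to 3 labelled knockout were above every such control, at a log2 fold change of 0.33 (SE 0.07, edgeR adjusted p = 0.0144). Pfkfb4, another gene for the same 2-way enzyme, at chr9:108991778-109032228, measured 94.9, 91.4, 100.2 and 60.3 CPM in controls and 80.3, 77.5, 78.2 and 82.9 CPM in the others. Its log2 fold change without number 4 was −0.28 (SE 0.06, edgeR adjusted p = 0.0138), while control 4 was the lowest library of all. Pdk1 and Pdk3, kinases that switch off pyruvate dehydrogenase, did not pass. Pdk3 measured 16.0, 24.8, 20.03 and 41.9 CPM in controls and 19.7, 25.5, 21.2 and 38.6 CPM in the others, and Pdk1 was 5.44 and 4.42 times its genotype mean in control 4 and knockout 4.

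Of the oxygen-sensing genes, Egln1 had the smallest adjusted p of all members without number 4. It encodes PHD2, the main prolyl hydroxylase acting on HIF-1α, and lies at chr8:124908587-124949324. It measured 74.2, 72.9, 69.8 and 126.5 CPM in controls and 46.3, 48.6, 49.7 and 113.8 CPM in those labelled knockout. Every pair was lower, with log2 differences of −0.68, −0.58, −0.49 and −0.15, and numbers 1 to 3 did not overlap. Over those, the mean was 72.3 ± 2.28 CPM in controls and 48.2 ± 1.70 CPM in the others (SD, n = 3 each), a ratio of 0.668 with an adjusted p of 0.000619 in edgeR. With 8 libraries and the block the log2 fold change was −0.47 (SE 0.09, adjusted p = 0.0552). Hif1a itself measured 214.5, 225.3, 189.9 and 725.2 CPM in controls and 186.4, 187.3, 191.2 and 835.4 CPM in the others. Its genotypes overlapped, and the log2 fold change without number 4 was −0.15 (edgeR adjusted p = 0.208), against 0.05 (SE 0.67) with 8 libraries. Egln3, a hydroxylase induced by hypoxia, held 2, 3 and 11 counts in controls 1 to 3 and 14, 11 and 8 in the matching libraries labelled knockout, against 1495 and 1298 in number 4.

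No hypoxia-responsive gene outside glycolysis passed with all 8 libraries or, without the block, with numbers 1 to 3. Adm, the vasodilator peptide adrenomedullin, was lower in 4 of 4 pairs, at 15.1, 21.5, 16.0 and 21.7 CPM in controls and 9.80, 15.4, 10.2 and 4.73 CPM in those labelled knockout. Its ranges overlapped by 1 library, knockout 2. The log2 fold change was −0.89 (SE 0.33, edgeR adjusted p = 0.897) with 8 libraries and −0.57 (adjusted p = 0.12, and 0.0024 with the block) without number 4, where it also passed without the block once knockout 2 was left out. Ndrg1, a stress-responsive gene, measured 7.78, 9.22, 9.20 and 50.8 CPM in controls and 11.9, 9.84, 8.61 and 185.5 CPM in the others. Knockout 4 stood above control 4 by 1.86 on the log2 scale, while numbers 1 to 3 overlapped. Hilpda, which inhibits lipid droplet lipase, was lower in 4 of 4 pairs without passing (log2 fold change −0.41 and adjusted p = 0.152 without number 4, and −0.43 with 8 libraries).

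Mif, a cytokine gene, was 31.4 to 38.4 CPM in numbers 1 to 3 and 509.6 and 411.2 CPM in number 4, ratios of 15.3 and 10.9. Bnip3 stood at 10.03 and 7.51 times its genotype mean, whereas its paralogue Bnip3l, also a mitophagy receptor, ran only from 108.2 to 154.3 CPM. Higd1a, a mitochondrial protein gene, was 10.4 to 13.9 CPM in numbers 1 to 3 and 50.5 and 39.8 CPM in number 4. Ankrd37 did not pass the low-count filter: it held 8, 9, 3 and 292 counts in controls and 10, 3, 0 and 200 in the others.

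**Figure D3:**
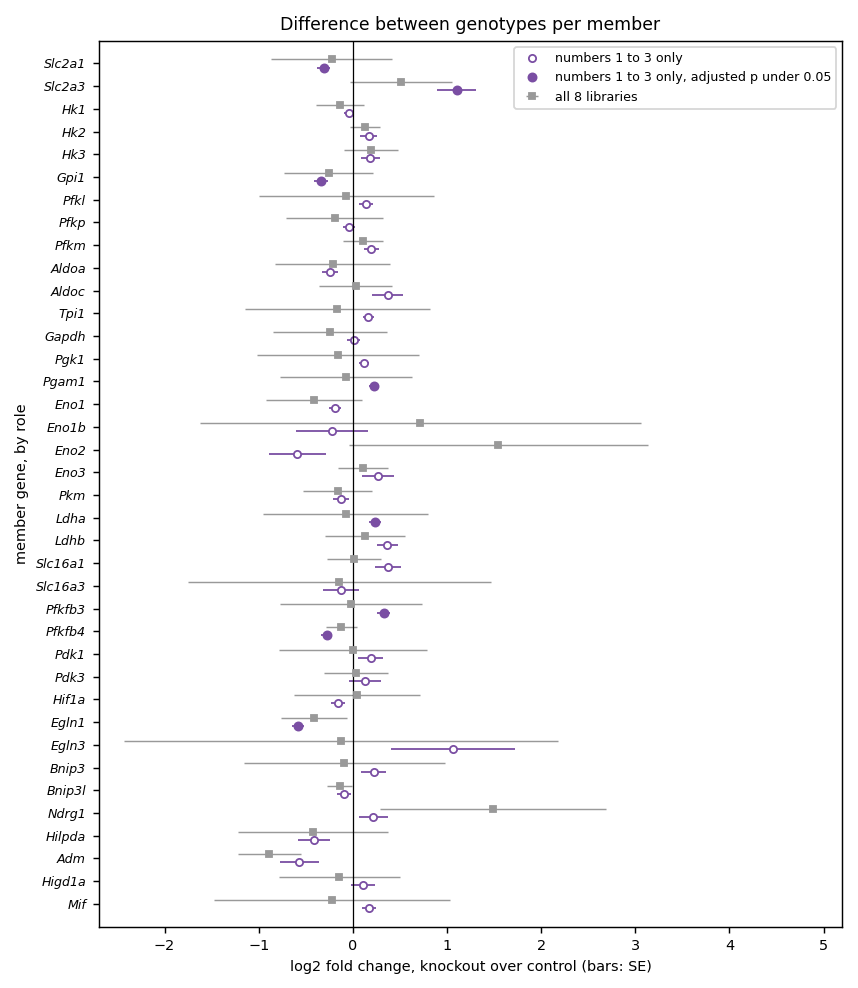
Log2 fold change, libraries labelled knockout over control, with bars of 1 SE, for the 38 members that passed the filter (rows, by role); grey squares use all 8 libraries and purple circles numbers 1 to 3, filled where the adjusted p was under 0.05. The circles have far shorter bars, and 8 are filled.

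Ratios between isoforms, computed within each library from CPM per kilobase, showed which copy led. Pfkfb4 exceeded Pfkfb3 in numbers 1 to 3, with log2 ratios of 1.22, 1.27 and 1.42 in controls and 0.63, 0.74 and 0.73 in the libraries labelled knockout, and was below it in number 4, at −1.86 and −1.16. Bnip3l over Bnip3 turned likewise, from 1.22 to 1.83 in numbers 1 to 3 to −1.18 and −1.23 in number 4. Pdk3 over Pdk1 did too, from between 0.45 and 1.56 to −0.37 and −0.38. Egln3 over Egln1, on few Egln3 counts, instead rose in number 4, from between −8.70 and −5.25 to 0.16 and 0.17. Slc16a3 over Slc16a1 also rose, lying between −0.09 and 0.81 in numbers 1 to 3 and at 4.40 and 4.99 in number 4. Hk3 over Hk1 was 1.71 to 2.30 in numbers 1 to 3 and 0.10 and 0.66 in control 4 and knockout 4. The log2 ratio of Slc2a3 to Slc2a1 was −5.76, −5.63 and −6.26 in controls 1 to 3 and −4.34, −4.46 and −4.60 in the matching libraries labelled knockout, with −6.86 in control 4 and −8.97 in knockout 4. These ratios are descriptions and were not tested.

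**Figure D4:**
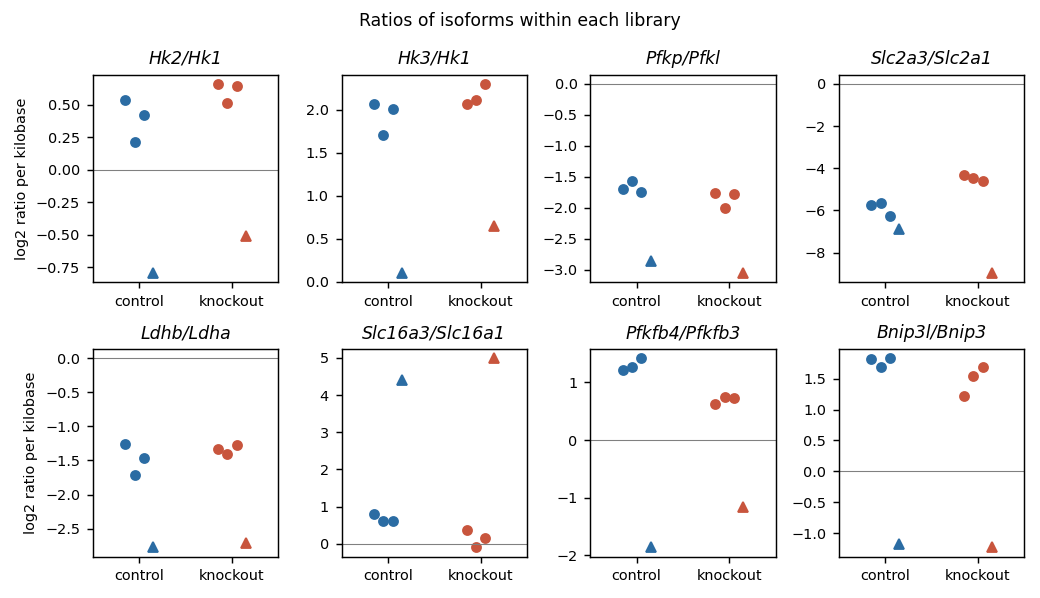
Log2 ratio per kilobase of exon for 8 pairs of isoforms, by genotype, with circles for libraries 1 to 3 and triangles for the libraries numbered 4. The triangles lie on the other side of 0 from the circles for Pfkfb4/Pfkfb3, Bnip3l/Bnip3 and Hk2/Hk1.

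The other genes of these pathways, 5 lists of non-members, gave 0 calls with 8 libraries, and medians of log2 fold change of −0.03 to −0.12 beside −0.02 over all genes and −0.11 over the members. The smallest unadjusted p-values there belonged to Tigar (−0.365), Pgam2 (0.505), Pgam5 (−0.215) and Minpp1 (−0.17) among the isoforms and glucose-handling enzymes, where the value is the log2 fold change. In the pentose phosphate list they belonged to G6pdx (0.24), Rpe (−0.19), Prps2 (0.25) and Pgls (−0.27), and in the pyruvate list to Dlat (−0.30), Pcx (0.30), Pdha1 (−0.17) and Pdp2 (0.17). In the citric acid cycle they belonged to Idh3a (−0.40), Cs (−0.22), Ogdh (0.13) and Mdh2 (−0.38), and among the other hypoxia genes to P4ha2 (−0.74), Loxl2 (−0.89) and Bhlhe40 (−0.72). With the block over 8 libraries 1 list gene passed, Pdk4, a kinase of pyruvate dehydrogenase (−0.48, edgeR adjusted p = 0.0385). Without number 4, 0 of 17 other isoforms and glucose-handling enzymes, 1 higher and 1 lower of 12 pentose phosphate genes, 0 of 12 pyruvate oxidation genes, 3 higher of 19 citric acid cycle genes, and 2 higher and 3 lower of 27 other hypoxia genes passed. Prps2, which makes phosphoribosyl pyrophosphate, had a log2 fold change of 0.41 (edgeR adjusted p = 0.00449), and Rpia, ribose-5-phosphate isomerase, at −0.45 (adjusted p = 0.041). The 3 citric acid cycle genes were Ogdh, Mdh1 and Idh1, with log2 fold changes of 0.26, 0.33 and 0.30. Ddit4, an inhibitor of mTORC1 signalling, was at 1.09 (adjusted p = 0.00356), and Vegfa, the angiogenic factor, at −0.30 (adjusted p = 0.0282). P4ha2, a collagen prolyl hydroxylase, was at −0.46 (adjusted p = 0.024). With 8 libraries the log2 fold changes were −0.20 for Rpia, 0.13 for Ogdh, −0.12 for Mdh1, 0.20 for Idh1, 0.37 for Ddit4 and 0.01 for Vegfa, none past the threshold. Vegfa measured 730.8 and 806.2 CPM in number 4 against 94.1 to 133.1 CPM elsewhere.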

How the data were processed

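Polyadenylated RNA of 8 libraries was analysed from whole-number counts per gene symbol as the authors deposited them. The submitters' processing notes name STAR 2.7.11b, featureCounts 2 and build GRCm38 (mm10). The annotation, strand use and treatment of multiply aligned reads are not given in the sources used, and 15 members overlap another gene's exons. Of the symbols, 24321 (96.4%) matched 1 gene of GENCODE M21, which gave exon lengths and coordinates. Members and lists were chosen with earlier results of these data known.

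Genotypes were compared in R 4.3.3 with edgeR 4.0.16 (quasi-likelihood, robust, filterByExpr, TMM, genotype only) over 12837 genes, adjusted by Benjamini-Hochberg at 0.05; the code was tested on simulated data. CPM were computed from the counts and TMM-scaled totals, with a prior count of 2 for log2 values. DESeq2 1.42.0, limma 3.58.1 voom, RLE factors, no filter, the replicate block and leaving out libraries were alternatives. The test between numbers, and the settings tried on numbers 1 to 3, were chosen after seeing the data. Same-numbered libraries correlated after removal of genotype means (r = 0.46 to 0.829, and 0.161 to 0.376 in numbers 1 to 3), each over 0.1. On these correlations rather than on any label, the number was treated as pairing libraries in the block fits and in the differences per pair. Number 4 stood apart in both genotypes, so genotype means that include it shift numbers 1 to 3 alike. The correlations over 8 libraries therefore cannot show that numbers 1 to 3 are paired. Correlations between differently numbered libraries are not given, so the pairing remains an assumption. The main fit, and that of numbers 1 to 3 without the block, left the number out and were not paired. Libraries of a group differed beyond sampling noise. All members are named, with full values for those past the threshold in any of 3 models (8 libraries, block, numbers 1 to 3) and for the 2 of smallest p per role. For each list the 4 genes of smallest p are named, except 1 that is not reported here; further list genes were chosen after their values were seen.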

Additional observations from a re-analysis of the deposited data

Results flagged for a closer look

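In 75 of 104 groups of 4 libraries examined, 1 library lay far from the other 3, measured as its gap to the nearest divided by the whole range, and it was number 4 each time. Chance alone flags about 1 in 20 groups, and the groups share libraries. The check was run on members and their ratios only, so no share over all genes stands beside it. Number 4 also stood apart over all genes: both of its libraries were above the other 6 for 34.2% and below for 33.8%. The flags cannot be read as a trait of the members alone. For 59 member levels number 4 was the highest.

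In controls the gap was 0.997 for Eno1b, 0.996 for Slc16a3, 0.995 for Egln3, 0.991 for Mif, 0.989 for Pgam1 and Ldha, 0.988 for Tpi1 and Bnip3, 0.985 for Pgk1, 0.984 for Ankrd37, 0.983 for Pfkfb3 and Hilpda, 0.979 for Gapdh, 0.977 for Pfkp, 0.974 for Pfkl, 0.967 for Ndrg1. Smaller gaps there were 0.962 for Hk1, 0.958 for Eno1, 0.947 for Slc2a1, 0.945 for Eno2 and Higd1a, 0.934 for Hif1a, 0.928 for Pdk1, 0.927 for Aldoa, 0.922 for Egln1, 0.889 for Gpi1, 0.888 for Slc16a1, 0.858 for Eno3, 0.852 for Pkm, 0.848 for Ldhb. In the libraries labelled knockout the gap was 0.999 for Eno1b, 0.997 for Eno2, 0.996 for Mif, 0.995 for Egln3, 0.993 for Pgk1 and Hif1a, 0.988 for Slc2a1 and Tpi1, 0.987 for Aldoa, 0.985 for Pgam1, 0.982 for Gpi1, 0.981 for Slc16a3 and Ndrg1, 0.975 for Pfkl and Ldha. Smaller gaps there were 0.965 for Pfkp and Hilpda, 0.959 for Pfkfb3, 0.957 for Ankrd37, 0.954 for Gapdh, 0.951 for Egln1, 0.947 for Pdk1 and Bnip3, 0.943 for Eno1, 0.928 for Ldhb and Higd1a, 0.923 for Pkm, 0.894 for Hk1, 0.884 for Pfkm. Number 4 gave the highest isoform ratio for Slc16a3/Slc16a1 in control (0.948), Slc16a3/Slc16a1 in knockout (0.907), Eno2/Eno1 in knockout (0.942), Egln3/Egln1 in knockout (0.840). Number 4 gave the lowest isoform ratio for Hk2/Hk1 in knockout (0.876), Hk3/Hk1 in knockout (0.861), Pfkp/Pfkl in control (0.867), Pfkm/Pfkl in control (0.921), Pfkm/Pfkl in knockout (0.891), Slc2a3/Slc2a1 in knockout (0.944), Ldhb/Ldha in knockout (0.910), Aldoc/Aldoa in knockout (0.905), Pfkfb4/Pfkfb3 in control (0.941), Pfkfb4/Pfkfb3 in knockout (0.940), Bnip3l/Bnip3 in control (0.951), Bnip3l/Bnip3 in knockout (0.842).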

How the results depend on the processing

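With all 8 libraries 0 genes passed in edgeR, and the libraries numbered 4 moved the counts most among single libraries. Genes higher and lower numbered 127 and 49 with DESeq2, 168 and 151 with the replicate block, 1005 and 812 with numbers 1 to 3, and 1593 and 1539 with the block and without number 4. Leaving out 1 library gave 0 to 25 higher and 0 to 13 lower, with 25 and 13 without control 4 and 17 and 7 without knockout 4. Members higher and lower were 4 and 4 with numbers 1 to 3 and 6 and 7 with the block there, and 0 under every other alternative run over the 8 libraries, including those that left 1 library or another number out. Within numbers 1 to 3, DESeq2 gave 5 and 5, and RLE factors, voom and no filter 4 and 4. With no filter Ldhb passed in place of Ldha. Within numbers 1 to 3, leaving out 1 library gave 1 to 4 members higher and 1 to 6 lower: 1 and 1 without control 3 or knockout 3, 1 and 2 without knockout 1, and 2 and 2 without knockout 2. Over all genes those refits gave 455 to 1131 higher and 383 to 986 lower. Pathway list genes higher were 6 with numbers 1 to 3 and 8 with the block there, and lower 4 and 12, with 1 under the block over 8 libraries.

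The members' median log2 fold change was −0.11 with 8 libraries, 0.053 with the replicate block, 0.12 with numbers 1 to 3, 0.03 with voom, and −0.016, 0.001, 0.047 and 0.13 with the block without number 1, 2, 3 and 4. It ran from −0.79 without knockout 4 to 0.56 without control 4, and was above 0 without knockout 1, 2 or 3 (0.085 to 0.091) and lower without control 1, 2 or 3 (−0.29 to −0.285). Between numbers, numbers 1 to 3 gave 310 genes and 0 members. The sign turned without number 4, and the gene then passed, for Pgam1 (0.23, and 0.23 with the block), Ldha (0.23 and 0.23) and Pfkfb3 (0.33 and 0.33). Of 670 single-member values under alternatives, 649 kept direction and side of the threshold or changed sign while never passing (147), 15 newly passed and 6 reversed. The block changed no call with 8 libraries among members. Genes such as Egln3 rest on few counts in numbers 1 to 3, which limits their precision.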
